A study of Arabidopsis thaliana with 17 samples.

Results

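A set of genes that stands for leaf senescence was followed through a salt experiment on Arabidopsis thaliana seedlings, 10 of the 27655 genes in the count tables. They were chosen by locus: the NAC transcription factor genes ORE1, NAP, ORS1 and JUB1, the WRKY transcription factor genes WRKY6 and WRKY53, and the senescence-associated genes SAG12, SAG13, SAG21 and SEN1. Earlier results of these data were known when the choice was made. All 10 passed the filter on low counts that left 21282 genes for testing, SAG12 with only 60 estimated counts in the whole experiment. The plants were 14 days old, grew in hydroponic culture, and were sampled at 0 h and at 24 h of 200 mM NaCl, and poly(A) RNA was sequenced from each sample. Col-0 is the wild-type accession, atdgcr14l-1 is a mutant of the gene AtDGCR14L, which the study ties to pre-mRNA splicing under salt stress, and OE-6 is the same mutant carrying AtDGCR14L under the 35S promoter, a viral promoter active in most tissues. The mutant allele is therefore shared by atdgcr14l-1 and OE-6, and OE-6 is 1 transgenic line. There were 2 libraries of Col-0 at 0 h and 3 of every other combination, 17 in all.

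Leaf senescence is the ordered dismantling of an ageing or stressed leaf, in which chlorophyll and protein are broken down and nitrogen is moved to growing parts. NAC and WRKY transcription factors switch this programme on and off, and age, darkness, ethylene, abscisic acid and salt all feed into them. The SAG and SEN genes are the classic readouts, and they do not all report the same trigger: SAG12 is used as a marker of developmental age, while others also answer to stress or to sugar supply.

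The libraries held between 53058673 and 56464259 counts, and levels are given as TMM-scaled CPM, counts relative to the scaled size of the library. AtDGCR14L, which checks the lines, stood at 57.8 ± 2.96 CPM in Col-0 at 0 h (SD, n = 2), at 7.85 ± 0.953 in the mutant (SD, n = 3) and at 47.5 ± 3.77 in OE-6 (SD, n = 3). At 24 h its level in OE-6, 74.8 ± 11.7 CPM, was close to that in Col-0, 75.1 ± 3.39 CPM (log2 difference -0.01 ± 0.11, adjusted p = 0.993), so an excess over wild type was not detected in the 35S line. The mean rank correlation of a library with the others of its group was 0.993 to 0.994 in Col-0 at 24 h. In the mutant at 24 h it was 0.987, 0.983 and 0.980 for replicates 1, 2 and 3. In OE-6 at 24 h it was 0.975, 0.974 and 0.978. By this measure over all tested genes, no single library of these groups stood clearly apart. Levels of single members did differ between libraries, as given below. The samples are labelled seedling, but the root-hair and endodermis markers PRP3, COBL9, EXPA7 and CASP1 reached at most 0.427 CPM in any library, and of the root list only SHR (5.09 to 15.8 CPM) and SCR (20.3 to 30.4 CPM) were present. Summed flower markers were 17.2 to 38.5 CPM in OE-6 at 0 h and 58.9 CPM in OE-6 at 24 h replicate 1, against at most 11.6 CPM in the libraries of the other groups and 9.51 CPM in the other libraries of OE-6 at 24 h. Summed guard cell markers were 85.8 to 100.6 CPM at 0 h and 63.8 to 94.4 CPM at 24 h, and seed markers at most 0.899 CPM. The labels do not say whether replicates were separate plants or cultures, so each p-value measures the spread between these samples.

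After 24 h in salt, 7 of the 10 genes were higher and 1 was lower in Col-0, 8 were higher and 1 lower in atdgcr14l-1, and 7 were higher and 1 lower in OE-6 (edgeR quasi-likelihood test, adjusted p under 0.05 over all genes). SAG13, SAG21, ORE1, NAP, JUB1, WRKY6 and WRKY53 rose in all 3 lines, SEN1 fell in all 3, ORS1 passed the test in the mutant alone, and SAG12 passed in none. The background is broad: in Col-0 25.4% of all tested genes were called higher and 21.4% lower, in the mutant 31.3% and 26.7%, and in OE-6 29.5% and 25.7%. Where 0 h and 24 h libraries are said not to overlap, the share of all tested genes so separated was not counted. Such separation therefore adds nothing to the tests. The median log2 fold change of the 10 members was 3.56 in Col-0, 4.07 in the mutant and 4.40 in OE-6. With SAG12 at its bound against a floor of 3 counts it was 3.35, 3.58 and 4.37. Over all tested genes it was 0.03 in each line. No unsalted library of 24 h was analysed here, so salt and the passage of 24 h cannot be told apart. In whole-tissue RNA, fewer cells of a type and less RNA per cell cannot be told apart either; the summed level of the 4 leaf mesophyll markers (4 of 4 detected) was 22262 to 27453 CPM at 0 h and 10595 to 15965 CPM at 24 h, and the part of this shift in the results was not tested.

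**Figure D1:**
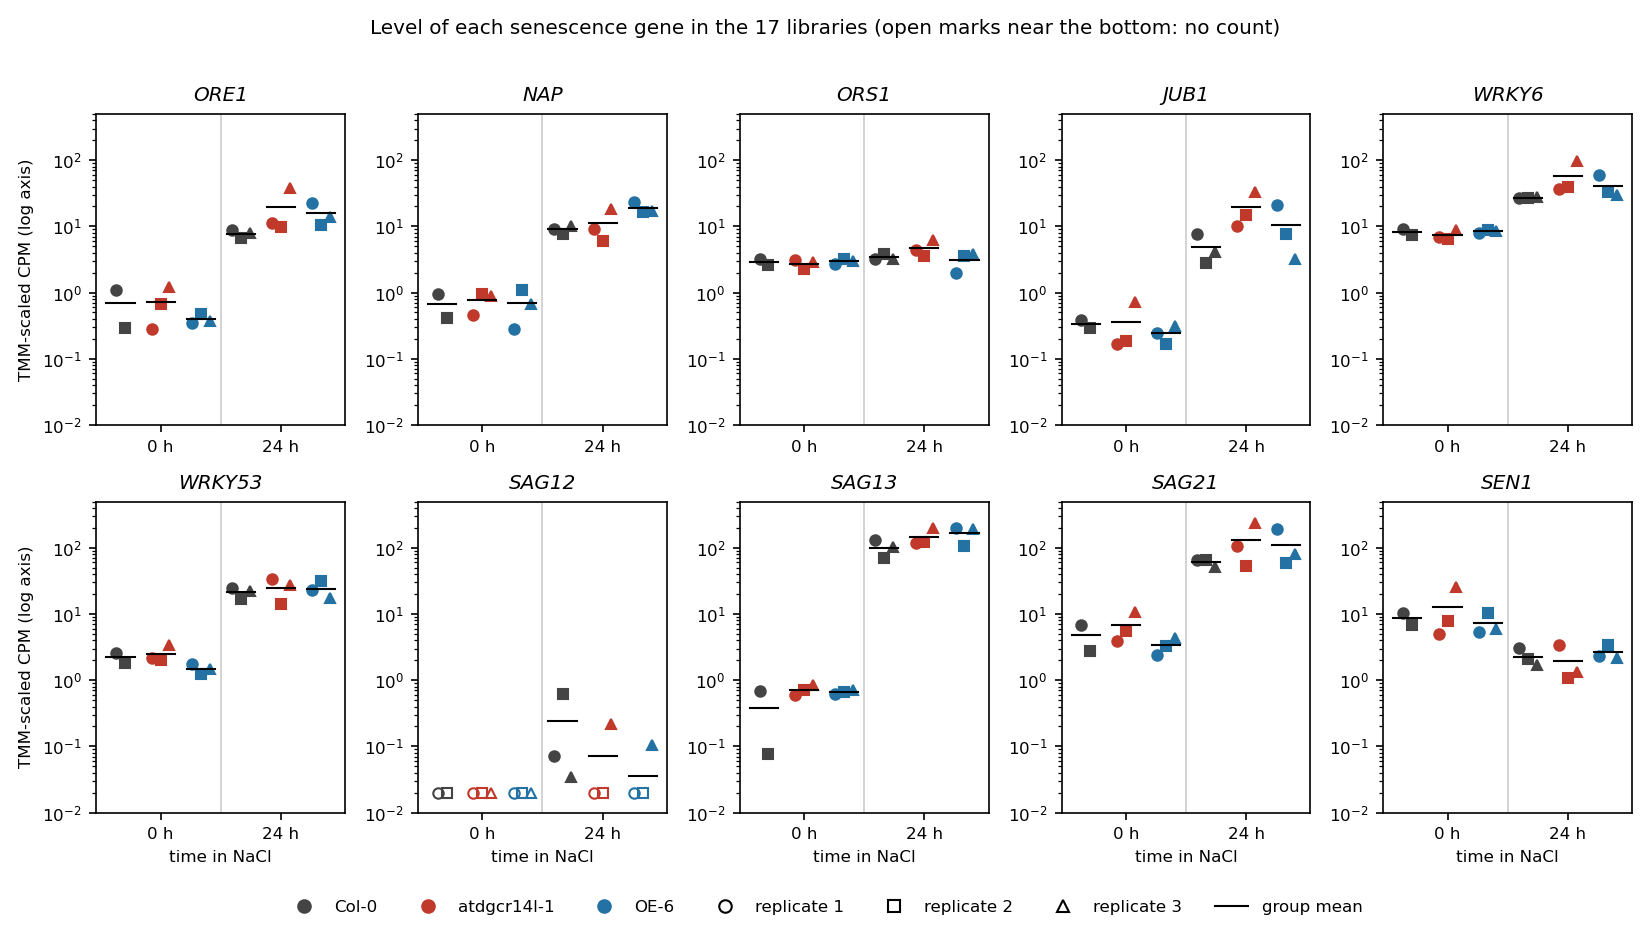
TMM-scaled CPM (log axis) of each of the 10 genes in each library, by line (colour) and replicate (symbol), at 0 h and 24 h of NaCl; horizontal lines are group means and open marks at the bottom are libraries with no count. The 7 genes called higher sit higher at 24 h in every line without overlap, SEN1 sits lower, ORS1 stays between 1.97 and 6.28 CPM, and SAG12 is absent at 0 h. Separation of the times was not counted over all tested genes.

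The upstream sequences of 6 of the 7 members that rose with salt in every line are shown here, because they differ in 2 short motifs. WRKY6 also rose and is not shown, but its window is counted below. The windows are the 250 bases before the annotated gene start in TAIR10.1 (RefSeq), read 5′ to 3′ on the gene's strand, and capitals mark the W-box core TTGAC, bound by WRKY factors, and the core ACGTG of the abscisic acid response element (ABRE), on either strand. CACGTG holds ACGTG on both strands and counts as 2 overlapping matches. The windows lie at chr5:15859912-15860161 (minus strand) for ORE1, chr1:26121830-26122079 (plus) for NAP, chr2:17882637-17882886 (minus) for JUB1, chr4:12393983-12394232 (minus) for WRKY53, chr2:12600664-12600913 (plus) for SAG13 and chr4:1047106-1047355 (minus) for SAG21.
ORE1: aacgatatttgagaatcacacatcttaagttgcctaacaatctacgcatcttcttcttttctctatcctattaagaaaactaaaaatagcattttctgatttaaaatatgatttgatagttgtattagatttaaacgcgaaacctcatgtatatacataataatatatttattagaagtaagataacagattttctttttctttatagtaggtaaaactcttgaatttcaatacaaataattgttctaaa
NAP: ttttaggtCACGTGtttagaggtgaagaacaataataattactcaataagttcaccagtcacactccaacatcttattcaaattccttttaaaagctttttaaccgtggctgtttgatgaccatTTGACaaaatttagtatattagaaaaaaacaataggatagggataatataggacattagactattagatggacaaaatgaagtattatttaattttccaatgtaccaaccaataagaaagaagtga
JUB1: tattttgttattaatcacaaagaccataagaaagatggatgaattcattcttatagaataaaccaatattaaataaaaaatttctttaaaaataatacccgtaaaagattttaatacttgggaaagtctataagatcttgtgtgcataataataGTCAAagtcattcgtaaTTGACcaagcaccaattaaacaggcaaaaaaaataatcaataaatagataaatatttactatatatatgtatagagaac
WRKY53: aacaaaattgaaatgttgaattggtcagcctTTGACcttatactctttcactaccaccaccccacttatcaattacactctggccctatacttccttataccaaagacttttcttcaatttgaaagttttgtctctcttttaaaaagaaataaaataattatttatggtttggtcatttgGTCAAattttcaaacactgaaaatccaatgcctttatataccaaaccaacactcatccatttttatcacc
SAG13: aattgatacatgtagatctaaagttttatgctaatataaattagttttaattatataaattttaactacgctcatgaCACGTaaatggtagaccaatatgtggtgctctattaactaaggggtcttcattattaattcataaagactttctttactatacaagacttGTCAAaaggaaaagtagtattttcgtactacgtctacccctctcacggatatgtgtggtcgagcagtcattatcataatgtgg
SAG21: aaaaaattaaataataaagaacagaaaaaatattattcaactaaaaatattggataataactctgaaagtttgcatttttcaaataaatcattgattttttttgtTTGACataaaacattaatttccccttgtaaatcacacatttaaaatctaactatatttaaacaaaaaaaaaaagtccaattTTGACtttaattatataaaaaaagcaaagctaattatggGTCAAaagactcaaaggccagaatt
SAG21 holds 3 W-box cores, JUB1 and WRKY53 hold 2 each, and NAP, SAG13 and WRKY6 hold 1. ORE1, ORS1, SAG12 and SEN1 hold neither motif in this window, and the window of SEN1 overlaps the neighbouring gene AT4G35760. Of all 27443 windows of this length 44.9% hold a W-box core, beside 6 of the 10 members. Of the windows of genes called higher with salt in Col-0 49.0% do, beside 6 of the 7 members called higher there, all but ORE1. The members were few and chosen with earlier results of these data known, and the difference was not tested. The ABRE core is found upstream of NAP and SAG13, against 22.9% of all windows and 29.5% of those of genes called higher with salt in Col-0. These are matches of letters and describe no binding.

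**Figure D2:**
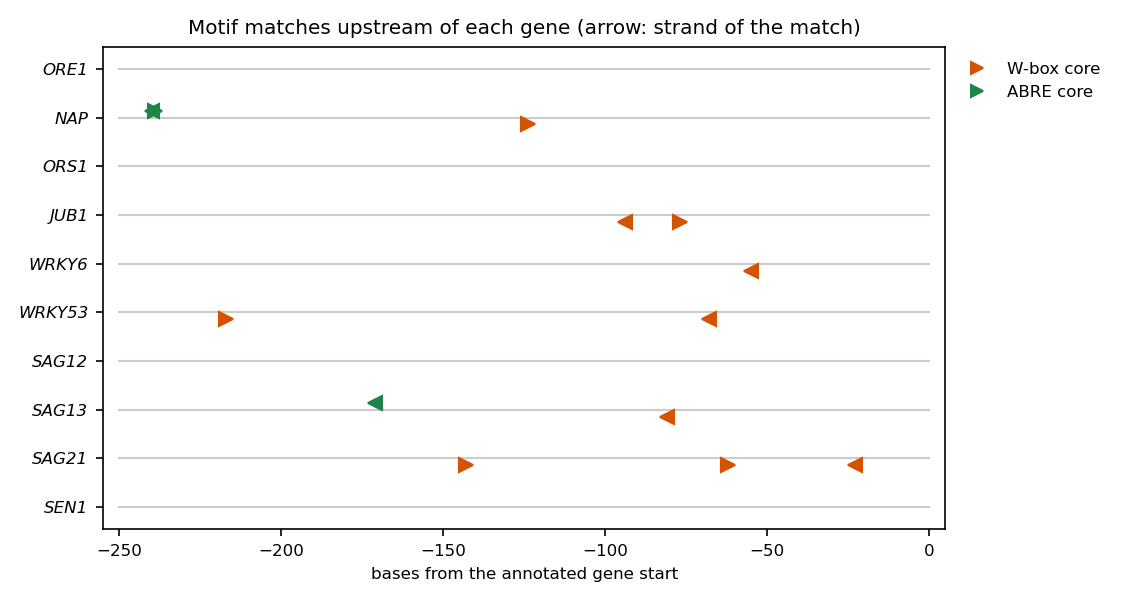
Matches to the W-box core and the ABRE core in the 250 bases upstream of each of the 10 genes, by distance in bases from the annotated gene start; arrows give the strand, and the overlapping pair in NAP, 1 on each strand, appears as a star. W-box cores lie upstream of 6 genes and ABRE cores upstream of NAP and SAG13.

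ORE1 (AT5G39610, chromosome 5, 15858398 to 15859911, TAIR10.1), a NAC factor that promotes leaf death with age, was low before salt. At 0 h it measured 1.11 and 0.291 CPM in Col-0, 0.279, 0.681 and 1.23 CPM in the mutant, and 0.341, 0.480 and 0.375 CPM in OE-6. At 24 h it measured 8.67, 6.65 and 7.86 CPM in Col-0, 11.1, 9.75 and 37.4 CPM in the mutant, and 22.7, 10.6 and 13.9 CPM in OE-6. Every 24 h library lay above every 0 h library, and replicate 3 of the mutant stood more than 3 times above its companions. The log2 fold change was 3.45 ± 0.74 (SE) in Col-0, a 10.9-fold rise (adjusted p = 0.00181), 4.73 ± 0.65 in the mutant (adjusted p = 3.21e-05) and 5.29 ± 0.68 in OE-6 (adjusted p = 2.39e-05). The size depended on single libraries. In Col-0 it was 4.72 without 0 h replicate 1 and 2.80 without 0 h replicate 2. In the mutant it was 5.33 without 0 h replicate 3 and 3.84 without 24 h replicate 3.

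NAP (AT1G69490, chromosome 1, 26122080 to 26123514), a NAC factor that acts with abscisic acid to start chlorophyll loss, followed the same course. Its 0 h levels were 0.944 and 0.408 CPM in Col-0, 0.465, 0.938 and 0.894 CPM in the mutant, and 0.284, 1.11 and 0.671 CPM in OE-6. Its 24 h levels were 9.22, 7.80 and 9.97 CPM in Col-0, 8.97, 6.11 and 18.4 CPM in the mutant, and 23.0, 16.2 and 16.96 CPM in OE-6. The times did not overlap, and at 24 h the OE-6 libraries lay above all those of Col-0. The rise was 3.72 ± 0.58 on the log2 scale in Col-0 (adjusted p = 0.000155), 3.86 ± 0.49 in the mutant (adjusted p = 1.39e-05) and 4.76 ± 0.51 in OE-6 (adjusted p = 3.57e-06); in Col-0 it was 4.46 without 0 h replicate 1.

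JUB1 (AT2G43000, chromosome 2, 17880457 to 17882636), a NAC factor that delays senescence and responds to hydrogen peroxide, rose alongside the factors that promote it. Before salt its levels were 0.389 and 0.291 CPM in Col-0, 0.167, 0.184 and 0.726 CPM in the mutant, and 0.246, 0.166 and 0.316 CPM in OE-6. At 24 h they were 7.73, 2.80 and 4.17 CPM in Col-0, 10.1, 15.1 and 33.5 CPM in the mutant, and 21.0, 7.63 and 3.16 CPM in OE-6. The times did not overlap, and at 24 h the OE-6 libraries spread from within the Col-0 range to above it, with a coefficient of variation of 87.7%. The log2 fold change was 3.84 ± 0.94 in Col-0 (adjusted p = 0.00467), 5.76 ± 0.83 in the mutant (adjusted p = 5.40e-05) and 5.44 ± 0.85 in OE-6 (adjusted p = 0.000123). Dropping replicate 2 of Col-0 at 0 h ended the Col-0 call of JUB1 (adjusted p = 0.0511). In the mutant its value was 6.78 without 0 h replicate 3 and 5.13 without 24 h replicate 3, and in OE-6 4.47 without 24 h replicate 1.

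ORS1 (AT3G29035, chromosome 3, 11033665 to 11035308), the relative of ORE1 that also promotes senescence, was expressed from the outset and changed little. Its levels at 0 h were 3.26 and 2.62 CPM in Col-0, 3.12, 2.24 and 2.85 CPM in the mutant, and 2.71, 3.21 and 3.00 CPM in OE-6. Those at 24 h were 3.20, 3.80 and 3.26 CPM in Col-0, 4.42, 3.55 and 6.28 CPM in the mutant, and 1.97, 3.52 and 3.78 CPM in OE-6. The times overlapped in Col-0 and OE-6 and were apart in the mutant. Its log2 fold change was 0.22 ± 0.28 in Col-0 (adjusted p = 0.542) and 0.05 ± 0.25 in OE-6 (adjusted p = 0.869). Approximate 95% limits were -0.32 to 0.76 and -0.43 to 0.54 in that order. In the mutant it rose by 0.79 ± 0.25 (adjusted p = 0.0120), a call lost without mutant 24 h replicate 3 (0.54, adjusted p = 0.0760) or mutant 0 h replicate 2 (0.67, adjusted p = 0.0566). The difference in its salt response between the mutant and Col-0, or between OE-6 and the mutant, was not called.

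ORE1 and ORS1 are close relatives, and ORE1 is the textbook example of a senescence regulator held down by a microRNA, miR164, in young leaves. The mature miRNA is shown with its seed, bases 2 to 8, in capitals, above the best-matching site in each gene's transcript with the bases facing the seed in capitals. MicroRNAs were not measured in these poly(A) libraries. The miRNA is encoded at chr2:19520770-19520790 (plus strand, TAIR10.1), and the sites lie in the coding sequences at chr5:15858797-15858817 (minus strand) for ORE1 and chr3:11034693-11034713 (plus strand) for ORS1.
miR164a: uGGAGAAGcagggcacgugca
ORE1 site: cucacgugaccugCUUCUCCg
ORS1 site: cucacguuaccuaCUUCUCCg
Counting G-U pairs as mismatches, the ORE1 site has 4 mismatches with miR164a and the ORS1 site has 6, and neither has a mismatch facing the seed. Sites with at most 4 mismatches were found in 13 of 31342 genes with an annotated mRNA. No other member had a site with fewer than 7 mismatches.

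WRKY6 (AT1G62300, chromosome 1, 23016569 to 23019494), a factor of senescence, defence and phosphate supply, rose in each line and differed little between the Col-0 libraries. It stood at 9.01 and 7.28 CPM in Col-0 at 0 h, at 6.82, 6.46 and 8.86 CPM in the mutant, and at 8.03, 8.75 and 8.50 CPM in OE-6. With salt it reached 27.3, 26.6 and 27.6 CPM in Col-0, a coefficient of variation of 1.72%, and 36.4, 39.2 and 97.8 CPM in the mutant and 59.4, 33.0 and 29.3 CPM in OE-6. All salted libraries lay above all unsalted ones, and those of the mutant and OE-6 all lay above those of Col-0. The log2 fold change was 1.74 ± 0.40 in Col-0 (adjusted p = 0.00292), 2.97 ± 0.36 in the mutant (adjusted p = 1.04e-05) and 2.27 ± 0.35 in OE-6 (adjusted p = 0.000102); without 24 h replicate 3 the mutant's value was 2.36.

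WRKY53 (AT4G23810, chromosome 4, 12392370 to 12393982), a factor active at the onset of senescence, rose in each line. Its 0 h levels were 2.59 and 1.84 CPM in Col-0, 2.16, 2.02 and 3.35 CPM in the mutant, and 1.74, 1.26 and 1.48 CPM in OE-6. At 24 h they were 24.4, 16.9 and 22.4 CPM in Col-0, 33.4, 14.2 and 27.0 CPM in the mutant, and 23.0, 31.0 and 17.2 CPM in OE-6. The 3 lines overlapped at 24 h, while 24 h and 0 h did not overlap in any line. Its log2 fold change was 3.26 ± 0.39 in Col-0 (adjusted p = 1.57e-05), 3.31 ± 0.33 in the mutant (adjusted p = 1.34e-06) and 3.99 ± 0.34 in OE-6 (adjusted p = 5.09e-07).

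**Figure D3:**
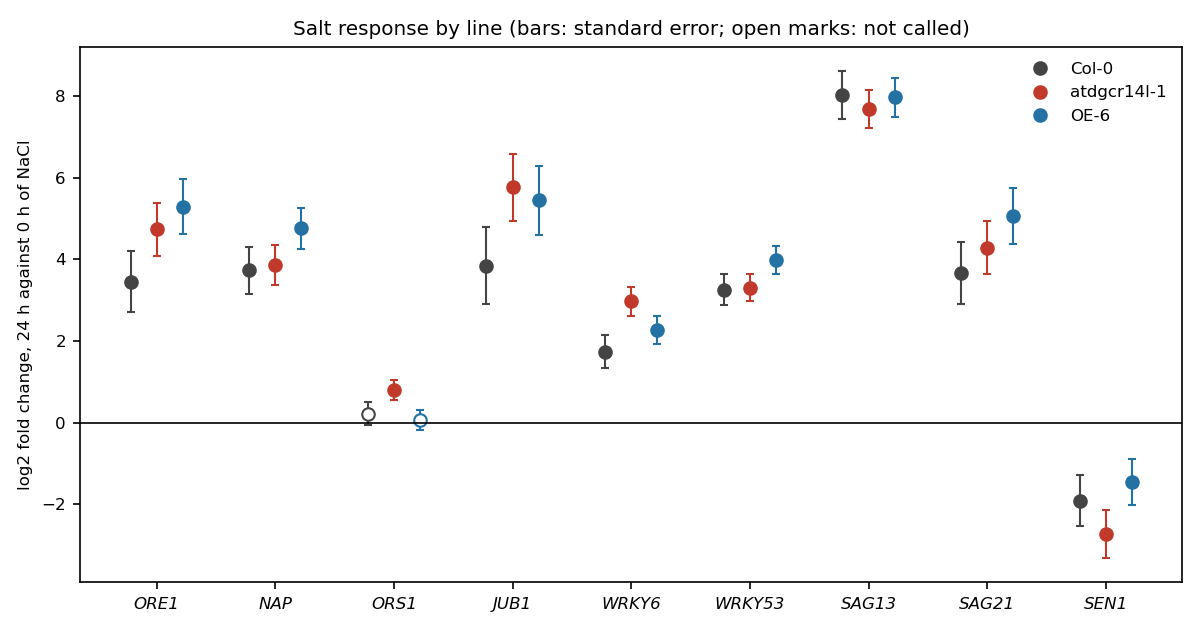
Log2 fold change from 0 h to 24 h of NaCl for 9 genes in each line, with standard errors; filled marks passed the test (adjusted p under 0.05) and open marks did not. SAG12 is left out because it had no count at 0 h; SAG13 lies near 8, ORS1 near 0 in Col-0 and OE-6, and SEN1 below 0.

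SAG13 (AT2G29350, chromosome 2, 12600914 to 12602556), a short-chain alcohol dehydrogenase gene used as a marker of senescence and oxidative stress, had the largest fold change of the 9 members for which one is given. It was at 0.685 and 0.0776 CPM in Col-0 at 0 h, at 0.595, 0.699 and 0.856 CPM in the mutant, and at 0.625, 0.665 and 0.710 CPM in OE-6. At 24 h it was at 129.3, 69.1 and 102.8 CPM in Col-0, 119.8, 123.9 and 197.3 CPM in the mutant, and 200.6, 107.9 and 192.5 CPM in OE-6. Salted and unsalted libraries were thus separated by a wide gap in each line. The log2 fold change was 8.01 ± 0.59 in Col-0, a 258-fold rise (adjusted p = 3.70e-07), 7.68 ± 0.46 in the mutant (adjusted p = 2.45e-08) and 7.96 ± 0.47 in OE-6 (adjusted p = 3.48e-08). The Col-0 value depended on its low start: without Col-0 0 h replicate 1 it was 10.30, and without replicate 2 it was 7.19.

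SAG13 sits in a cluster of similar dehydrogenase genes on chromosome 2, whose reads the counting could have split among copies, and its level is uncertain to that extent. Of 11 cluster neighbours, 10 were tested, and they did not follow SAG13: 6 fell and 1 rose in Col-0, and 6 fell and 2 rose in each of the other lines. In Col-0 AT2G29290 fell by 1.98 ± 0.30 on the log2 scale (adjusted p = 0.000109), AT2G29310 by 0.95 ± 0.15 (adjusted p = 0.000127) and AT2G29170 by 1.55 ± 0.31 (adjusted p = 0.000940). AT2G29340, the riser in Col-0, went from 15.5 ± 2.88 CPM (SD, n = 2) to 24.1 ± 1.92 CPM (SD, n = 3), and was named after its value was seen. The median log2 fold change of the cluster in Col-0 was -0.53.

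SAG21 (AT4G02380, chromosome 4, 1046042 to 1047105), also known as LEA5, encodes a small late-embryogenesis-abundant protein of mitochondria that responds to oxidants. Its 0 h levels were 6.75 and 2.76 CPM in Col-0, 3.98, 5.50 and 10.9 CPM in the mutant, and 2.41, 3.30 and 4.36 CPM in OE-6. Its 24 h levels were 64.3, 64.6 and 51.7 CPM in Col-0, 105.0, 52.6 and 238.6 CPM in the mutant, and 194.8, 59.8 and 79.8 CPM in OE-6. No salted library reached down to an unsalted one, and the salted libraries of the mutant and of OE-6 ran from within the Col-0 range to well above it. The log2 fold change was 3.66 ± 0.76 in Col-0 (adjusted p = 0.00167), 4.28 ± 0.65 in the mutant (adjusted p = 0.000103) and 5.05 ± 0.68 in OE-6 (adjusted p = 4.67e-05). It was 4.45 in Col-0 without 0 h replicate 1, 3.54 in the mutant without 24 h replicate 3, and 4.38 in OE-6 without 24 h replicate 1. Of 3 related LEA genes 2 were tested: AT4G15910 rose in Col-0 by 1.38 ± 0.38 on the log2 scale (adjusted p = 0.00879), and AT1G02820 gave 1.07 ± 0.42 (adjusted p = 0.0510). The count of 1 in Col-0 was 0 without Col-0 0 h replicate 2 and ran up to 2 without other single libraries.

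SAG12 (AT5G45890, chromosome 5, 18613239 to 18614963), the cysteine protease gene that marks developmental senescence, was all but silent. It had no count in any of the 8 libraries at 0 h. The floor set for bounds, 3 counts, is 0.0536 CPM in Col-0 replicate 1 before TMM scaling. At 24 h it had 4, 36 and 2 counts in Col-0 (0.0711, 0.622 and 0.0350 CPM), 0, 0 and 12 counts in the mutant, and 0, 0 and 6 counts in OE-6. A single Col-0 library thus held 36 of its 60 counts. The salt test did not call it (adjusted p = 0.113 for Col-0, 0.185 for the mutant, 0.327 for OE-6). No fold change is given.

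SEN1 (AT4G35770, chromosome 4, 16944878 to 16946266), also known as DIN1, a sulfurtransferase-like gene induced by darkness and lack of sugar, went the other way. It stood at 10.3 and 6.87 CPM in Col-0 at 0 h, at 5.05, 7.71 and 26.0 CPM in the mutant, and at 5.42, 10.3 and 5.98 CPM in OE-6. After salt it was at 3.06, 2.07 and 1.70 CPM in Col-0, 3.43, 1.07 and 1.33 CPM in the mutant, and 2.36, 3.37 and 2.16 CPM in OE-6. The highest salted library lay below the lowest unsalted one in each line. SEN1 fell by 1.91 ± 0.62 on the log2 scale in Col-0 (adjusted p = 0.0209), by 2.73 ± 0.59 in the mutant (adjusted p = 0.00131) and by 1.46 ± 0.57 in OE-6 (adjusted p = 0.0417). In the mutant SEN1 fell by 1.71 without 0 h replicate 3 and by 3.42 without 24 h replicate 1. For SEN1 in wild type, dropping 0 h replicate 1 or salted replicate 2 or 3 ended the call (adjusted p up to 0.125). In OE-6 it ended on dropping either unsalted wild-type library, salted wild-type replicate 2, OE-6 0 h replicate 2 or 3, or any salted OE-6 library (adjusted p up to 0.148), and with the replicate block (adjusted p = 0.0613).

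Per kilobase of exon, which allows levels of different genes to be set side by side, the order of the members turned over with salt. At 0 h SEN1 had the highest mean of the members in each line, at 6.60 CPM per kb in Col-0, 9.95 in the mutant and 5.58 in OE-6, while SAG13 stood at 0.279 in Col-0. The mutant mean of SEN1 rested on replicate 3: its libraries held 3.90, 5.94 and 20.0 CPM per kb against 4.11, 5.68 and 11.2 for SAG21, so the order of the pair differed between libraries. At 24 h in Col-0 SAG13 led at 73.4 ± 22.1 CPM per kb, followed by SAG21 at 62.2 ± 7.62, WRKY53 at 14.0 ± 2.57 and WRKY6 at 11.7 ± 0.202. NAP (7.18 ± 0.881), ORE1 (5.89 ± 0.774), JUB1 (3.56 ± 1.85), ORS1 (2.39 ± 0.232), SEN1 (1.76 ± 0.541) and SAG12 (0.186 ± 0.252) came after them. Neighbours in this order overlapped between libraries, except that SAG21 lay clear of WRKY53, WRKY6 clear of NAP, and SEN1 clear of SAG12. In the mutant SAG21 came first, at 136 ± 99.1 CPM per kb, and its range of 54.3 to 246 held that of SAG13.

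Between the lines at 24 h, WRKY6 was the only member called: it was 1.09 ± 0.33 higher on the log2 scale in the mutant than in Col-0 (adjusted p = 0.0482), in a comparison where 12.4% of all tested genes were called. JUB1, at 2.00 ± 0.66 (adjusted p = 0.0632), and ORE1, at 1.33 ± 0.54 (adjusted p = 0.119), also had every mutant library above every Col-0 library but did not pass. How many of all tested genes were separated in this way was not counted. DESeq2 called WRKY6 (adjusted p = 0.00673) and JUB1 (adjusted p = 0.0356). Without mutant 24 h replicate 3 the WRKY6 difference was 0.48 (adjusted p = 0.254), that of JUB1 1.36 (adjusted p = 0.276) and that of ORE1 0.43 (adjusted p = 0.667). The WRKY6 call was also lost without any Col-0 24 h library (adjusted p = 0.104 to 0.129), without any 0 h library (adjusted p = 0.0585 to 0.0672) and with the replicate block (adjusted p = 0.0675).

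Mutant minus wild type at 24 h, the other members gave differences of 1.13 ± 0.57 for SAG21, 0.55 ± 0.33 for SAG13, 0.47 ± 0.24 for ORS1, 0.31 ± 0.41 for NAP, 0.23 ± 0.29 for WRKY53 and -0.23 ± 0.58 for SEN1 on the log2 scale, with adjusted p from 0.211 to 0.840. OE-6 against the mutant at 24 h gave no call among the 10 with edgeR (12% of all tested genes called) or with DESeq2. In the edgeR test 1 member, ORS1, had an unadjusted p under 0.05, as did 6364 of the 21282 tested genes. ORS1 was 0.62 ± 0.24 lower in OE-6 (adjusted p = 0.105), and WRKY6 differed by -0.51 ± 0.33 (adjusted p = 0.319). The approximate 95% limits of the WRKY6 difference, -1.16 to 0.14, reach from a larger fall to a small rise.

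OE-6 against Col-0 at 24 h likewise gave no call with edgeR (0.0047% of all tested genes called) or with DESeq2. In the edgeR test 2 members had an unadjusted p under 0.05, as did 1693 of the 21282 tested genes. NAP was 1.06 ± 0.42 higher in OE-6 on the log2 scale (adjusted p = 0.577), and its OE-6 libraries, like those of ORE1 (1.02 ± 0.54, adjusted p = 0.653) and WRKY6 (0.58 ± 0.33, adjusted p = 0.661), all lay above those of Col-0. The share of all tested genes separated in this way was not counted, so the separation adds nothing to the tests. At 0 h none of the 10 was called by edgeR or DESeq2 in any comparison of lines. The share of all tested genes called by edgeR was 2.03% in the mutant against Col-0, 4.57% in OE-6 against the mutant and 0.0141% in OE-6 against Col-0. Members at an unadjusted p under 0.05 numbered 0, 1 (WRKY53) and 0 in that order. Among the 21282 tested genes the numbers were 2637, 3497 and 436. These line comparisons share their libraries with one another and with the salt comparisons.

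The salt responses themselves were compared between lines, and again no member was called by edgeR or DESeq2. For the mutant minus Col-0 the lowest adjusted p was 0.512, for WRKY6 (0.0047% of all tested genes called). WRKY6 was also the 1 member at an unadjusted p under 0.05, as were 1900 of the 21282 tested genes. For OE-6 minus the mutant the lowest adjusted p was 0.510, for ORS1 (0.0094% called). For OE-6 minus Col-0 it was 0.943, for NAP (0% called). In either, 0 members had an unadjusted p under 0.05, against 2080 and 914 of the tested genes. A p above the threshold does not show that the lines responded alike.

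**Figure D4:**
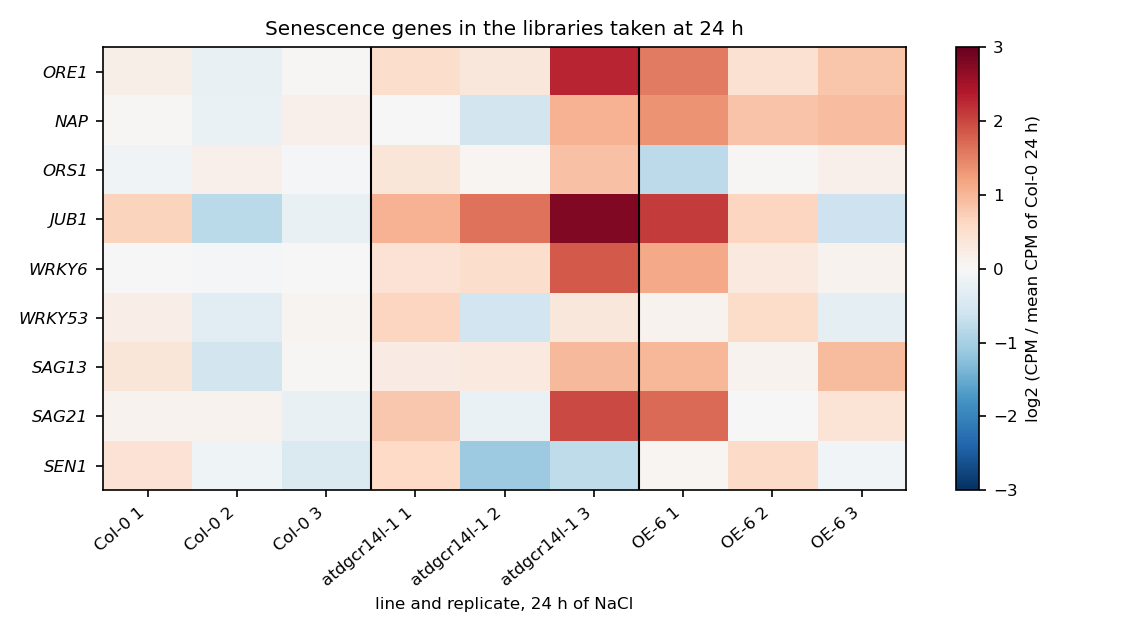
Level of 9 genes in each of the 9 libraries taken at 24 h of NaCl, as the log2 ratio to the mean of the Col-0 24 h libraries (colour scale, red above and blue below), with columns by line and replicate. Replicate 3 of the mutant and replicate 1 of OE-6 are the reddest columns, with ORE1 at 2.28 and 1.55.

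Within the mutant and OE-6 the salted libraries spread, and several members were highest in the same library. How often all tested genes were highest in a given library was not counted. A change of the whole library therefore cannot be told from one of these genes. Replicate 3 of the mutant had the highest level of its group for 8 of the 10 members, among them ORE1 at 3.58 times, SAG21 at 3.03 times, JUB1 at 2.66 times and WRKY6 at 2.59 times the mean of the other libraries. Replicate 1 of OE-6 was highest for 6 of 10, with JUB1 at 3.90 times, SAG21 at 2.79 times and WRKY6 at 1.91 times the mean of the others. WRKY53 and SEN1 did not peak in either library. In Col-0 at 24 h the highest library was shared out, replicate 1 for 5 members, replicate 2 for 3 and replicate 3 for 2. At 0 h replicate 1 of Col-0 exceeded replicate 2 for 9 of the 9 members detected, SAG13 by 8.82 times and ORE1 by 3.81 times. Replicate 3 of the mutant at 0 h was highest for 7 of 9, with JUB1 at 4.13, SEN1 at 4.07 and ORE1 at 2.56 times the mean of the other libraries. The flower marker sum, 58.9 CPM in OE-6 24 h replicate 1 and 3.19 CPM in mutant 24 h replicate 3, was high in only the first of these; its part in the levels was not tested.

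Genes whose profile over the 17 libraries lay nearest to each member were named by the root mean square difference of log2 levels centred on their own mean. For ORE1 these were GSTU24 (0.37) and UGT73C1 (0.37), for NAP CRK36 (0.32) and ZAT6 (0.36), and for JUB1 the NAC gene ANAC055 (AT3G15500; 0.26) and GSTU11 (0.28), where the median over all tested genes was 1.90, 1.77 and 1.94. WRKY6 lay nearest to AT3G62590 (0.16) and NSP5 (0.17), and WRKY53 to AT4G38560 (0.22) and AT3G01830 (0.27). SAG21 lay nearest to AT4G39670 (0.32) and, like ORE1, to GSTU24 (0.44); SAG13 to CSLG2 (0.38) and ChlAKR (0.60). SEN1 had no close companion, AT4G18205 (0.49) and AT3G46880 (0.51) being nearest against a median of 1.07. For ORS1, AT5G45690 (0.19) and OXA1 (0.20), and for SAG12, AT4G31830 (0.15) and AT5G44310 (0.16), were nearest, all with little change or levels near 0. Among the members themselves, ORE1 lay close to SAG21 (0.39) and to NAP (0.42). ORS1 and SAG12 lay 0.32 apart, where the median over all tested genes was 0.43 for ORS1 and 0.41 for SAG12. Both profiles changed little, and the 0.5 added before the log flattens levels as low as those of SAG12.

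The other genes of the programme were counted by list, against shares over all tested genes of 25.4% higher and 21.4% lower in Col-0, 31.3% and 26.7% in the mutant, and 29.5% and 25.7% in OE-6. Of 20 other NAC regulators of senescence 15 rose and 0 fell in each line, with a median log2 fold change of 1.55 in Col-0; ANAC019 rose by 6.01 ± 0.51, RD26 by 3.75 ± 0.34 and ANAC032 by 2.83 ± 0.26 there (adjusted p = 1.24e-06, 1.52e-06 and 1.44e-06). Of 14 other WRKY regulators 7 rose in Col-0, 7 in the mutant, 9 in OE-6, while 0 fell, with WRKY45 (2.50 ± 0.29), WRKY57 (1.56 ± 0.18) and WRKY25 (2.78 ± 0.33) leading by p in Col-0. Among 17 ethylene, abscisic acid and light regulators 6 rose and 5 fell in Col-0, 8 and 3 in the mutant, and 8 and 2 in OE-6. The 5 that fell in Col-0 became 1 without 0 h replicate 2 and 3 without 0 h or 24 h replicate 1. MYB2, an abscisic acid response factor, rose by 5.03 ± 0.54 in Col-0, ABF2 by 0.95 ± 0.15 and ABF3 by 1.26 ± 0.20; the last pair encode factors that bind the ABRE.

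Of 26 other SAG and DIN (dark-inducible) genes 17 rose and 3 fell in Col-0, 21 and 3 in the mutant, and 19 and 3 in OE-6. SAG113, a phosphatase gene of abscisic acid signalling, rose by 5.64 ± 0.46 on the log2 scale in Col-0 and SAG20 by 1.98 ± 0.16, while DIN10, a raffinose synthase family gene, fell by 2.97 ± 0.18. Of SEN1 and the 7 DIN genes of the list, SEN1, DIN3, DIN4 and DIN10 fell in each line. DIN2 was called higher in the mutant and in OE-6, where its 24 h means were 55.1 and 64.9 times the level of 3 counts. In Col-0 it had every salted library higher, with a mean 9.05 times that level (adjusted p = 0.0538). These ratios leave out the spread between libraries, which in OE-6 at 24 h was wide (3.54 ± 4.39 CPM, SD). DIN6 and DIN11 (3.47 ± 1.16 on the log2 scale) passed in the mutant. For the 8 genes no difference in salt response between lines was called; DIN2, DIN3, DIN4 and DIN11 were named after their values were seen. DIN6, an asparagine synthetase gene, went from 5.12 to 20.3 CPM in the mutant (1.99 ± 0.65, adjusted p = 0.0176).

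For chlorophyll breakdown, 5 of 10 genes rose and 2 fell in Col-0, 6 and 2 in the mutant, and 5 and 2 in OE-6. The genes that fell lie near the share over all genes. With 1 library left out their count was 1 to 3 in Col-0 (1 without any one of the 5 Col-0 libraries) and 1 to 4 in OE-6 (4 without OE-6 24 h replicate 2, and 1 without 0 h replicate 2 or 3 or 24 h replicate 1 or 3). PPH, the pheophytinase, rose by 1.19 ± 0.12 in Col-0, SGR1, which releases magnesium from chlorophyll, by 0.95 ± 0.10, and CLH1, a chlorophyllase, by 1.75 ± 0.24 on the log2 scale. Of 14 autophagy genes 8 rose and 1 fell in Col-0, 8 and 1 in the mutant, and 9 and 1 in OE-6, but in Col-0 the 8 became 1 without 0 h replicate 2, 5 without 0 h replicate 1 and 4 without 24 h replicate 1. Changes were small: ATG8H rose by 1.44 ± 0.15 and ATG8A by 0.66 ± 0.16, and ATG8E fell by 0.75 ± 0.12. The medians in Col-0 were 0.89 for chlorophyll breakdown and 0.23 for autophagy, against 3.56 for the 10 members, or 3.35 with SAG12 at its bound.

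**Figure D5:**
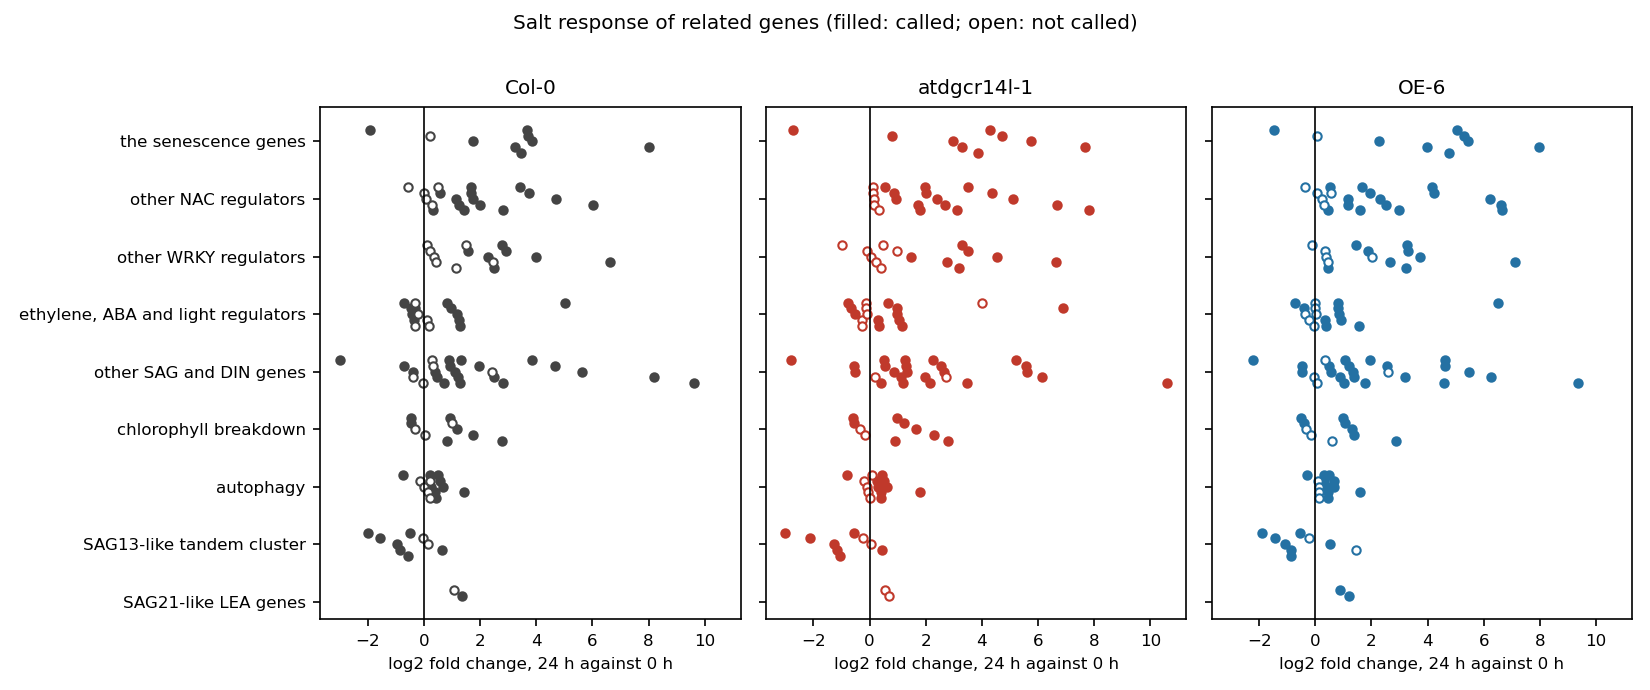
Log2 fold change from 0 h to 24 h of NaCl for the genes of each list in Col-0, atdgcr14l-1 and OE-6; filled marks passed the test (adjusted p under 0.05), open marks did not, and genes with no count in a group are not drawn. NAC and WRKY regulators lie mostly to the right of 0, autophagy genes close to it, and the cluster around SAG13 mostly to its left.

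At 24 h a few genes of these lists differed between the mutant and Col-0 (3 of 20 NAC regulators, 1 of 14 WRKY regulators and 3 of 26 SAG and DIN genes), where 12.4% of all tested genes were called. Those shares lie near it and say nothing particular of the lists. Among the NAC regulators 3 were higher in the mutant, RD26 (1.02 ± 0.25, adjusted p = 0.0194), VNI2 (0.88 ± 0.24, adjusted p = 0.0281) and ANAC055 (19.4 against 4.49 CPM, adjusted p = 0.0488). WRKY28 (2.12 ± 0.42, adjusted p = 0.00635), MYB2 (1.25 ± 0.34), DIN6 (3.03 ± 0.68), RNS1 (1.84 ± 0.52), DIN10 (0.56 ± 0.16) and PPH (0.42 ± 0.10) were also higher. ABF2 (-0.43 ± 0.13, adjusted p = 0.0390), NOL (-0.69 ± 0.10, adjusted p = 0.000904) and ATG8B (-0.49 ± 0.13, adjusted p = 0.0293) were lower, as were the SAG13 neighbours AT2G29310 (-0.93 ± 0.14, adjusted p = 0.000967) and AT2G29170 (-1.68 ± 0.31, adjusted p = 0.00376). Without mutant 24 h replicate 3 the counts of called genes fell from 3 to 0 for NAC regulators and from 3 to 0 for SAG and DIN genes, and were 1 for WRKY regulators, 1 lower for chlorophyll breakdown and 2 lower for the SAG13 cluster. The lists of ABF2 and ATG8B then held 0 lower. Over all single libraries left out the count for NAC regulators ran from 0 to 7. It was also 0 without any one Col-0 24 h library, and 7 without mutant 24 h replicate 2. The count for SAG and DIN genes ran from 0 to 5. It was also 0 without Col-0 24 h replicate 1 or 2, and 5 without mutant 24 h replicate 2. The lower counts ran from 0 to 2 for the list of ABF2 (0 without 11 of the 17) and from 0 to 4 for autophagy. The autophagy count was also 0 without Col-0 24 h replicate 1 or 2 or mutant 24 h replicate 1. It was 4 without mutant 24 h replicate 2 or OE-6 24 h replicate 1 or 2. In OE-6 against the mutant, a comparison that shares the mutant libraries, WRKY28 gave a log2 difference of -1.70 ± 0.41 (adjusted p = 0.0183), DIN6 gave -2.66 ± 0.67 (adjusted p = 0.0230) and NOL 0.60 ± 0.10 (adjusted p = 0.00260). There AT2G29310 was higher by 0.91 ± 0.14 (adjusted p = 0.00142) and AT2G29170 by 1.86 ± 0.31 (adjusted p = 0.00238), while SAG13 itself differed by 0.18 ± 0.32 (adjusted p = 0.750).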

How the data were processed

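Each library's file held an estimated count per gene for 27655 genes, deposited by the authors as whole numbers; among the low values 2 was commoner (8767 times) than 1 (2703) or 3 (4203), so a count need not be 1 read. The submitters' processing notes name StringTie 2.1.7, DESeq2 2.11.40.7 and Bowtie2 2.4.5. A genome build or strand setting is not given in the sources used, and near-identical genes may share reads. No 2 libraries held identical values. Groups follow the labels.

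All 17 libraries were fitted in 1 model of 6 groups with edgeR 4.0.16 (R 4.3.3, limma 3.58.1): TMM scaling, filterByExpr (21282 genes kept), the robust quasi-likelihood test, and Benjamini-Hochberg adjustment over all genes kept, with calls at an adjusted p under 0.05. The common biological coefficient of variation was 19.5%. Each SE was derived from the log2 value and its test statistic. The 95% limits use the normal distribution and are narrower than the quasi-likelihood test would give. The scripts were tested on simulated data. Alternatives were DESeq2 1.42.0, RLE scaling, no filter, 5 CPM in 2 libraries (16383 genes), organelle genes left out, only the groups compared, a block on replicate number, leaving out every library in turn, and leaving out together OE-6 24 h replicate 2 and replicate 3 of atdgcr14l-1 at 24 h. Each library of that pair had the lowest mean rank correlation of its group.

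Bounds against groups with no count set the mean of the other group against 3 counts per library, and leave out the spread between libraries. That floor is a set value in unscaled CPM, not a limit on the true level. Profiles are log2(CPM + 0.5). Positions, lengths and sequences are from RefSeq TAIR10.1, which may not be the authors' build; 27445 loci matched by locus tag, among them all 147 members and list genes. Named genes are the 10 members, AtDGCR14L, up to 3 genes a list by p for salt in Col-0 and for mutant minus Col-0 at 24 h, and the 2 profiles nearest to each member. The members and lists were chosen with earlier results of these data known. Depth was 53058673 to 56464259 counts a library; intervals on single counts would cover counting error only.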

Additional observations from a re-analysis of the deposited data

How the results depend on the processing

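The count of members called higher with salt was 7 in Col-0, 8 in atdgcr14l-1 and 7 in OE-6 under RLE scaling, DESeq2, no filter, organelle genes left out, only the groups compared and the replicate block. In the mutant it was 7 with the filter at 5 CPM, which removes ORS1. It was also 7 there with OE-6 24 h replicate 2 and mutant 24 h replicate 3 left out together. With 1 library left out it was 6 to 7 in Col-0, 7 to 8 in the mutant and 7 in OE-6. The 1 member lower with salt in OE-6, SEN1, became 0 with no filter on low counts and with the replicate block. It was also 0 with both of those libraries left out together, and 0 to 1 with 1 library left out, as in Col-0. The 1 member higher in the mutant than in Col-0 at 24 h, WRKY6, became 0 with no filter, organelle genes left out, only the groups compared, the replicate block, or both libraries left out, 2 with DESeq2, and 0 to 2 with 1 library left out. For OE-6 against the mutant, 1 member was lower at 0 h with only the groups compared, and 0 to 1 at 24 h with 1 library left out, ORS1 without mutant 24 h replicate 2 (adjusted p = 0.0443). The cause of these changes was not tested.

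Every log2 value that changed sign was one that had not been called. With both libraries left out these were ORS1 for salt in OE-6 (-0.049), NAP for the mutant against Col-0 (-0.25), ORE1 (0.81), WRKY6 (0.23) and SAG21 (0.80) for OE-6 against the mutant, and WRKY53 (-0.080) and SEN1 (-0.010) for OE-6 against Col-0, all at 24 h. With 1 library left out the ranges were -0.12 to 0.29 for ORS1 with salt in OE-6. For the mutant against Col-0 they were -0.25 to 0.61 for NAP, -0.045 to 0.51 for WRKY53 and -0.92 to 0.066 for SEN1. For OE-6 against the mutant they were -0.67 to 0.59 for ORE1, -0.89 to 0.10 for WRKY6, -0.35 to 0.20 for WRKY53 and -0.92 to 0.50 for SAG21, and for OE-6 against Col-0 -0.32 to 0.093 for ORS1, -0.080 to 0.34 for WRKY53 and -0.011 to 0.47 for SEN1.

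Same-numbered libraries of different groups deviated from their group means with correlations of -0.16 to 0.32, above 0.1 in 4 of 24 pairs. Between OE-6 at 0 h and at 24 h they were 0.32, 0.15 and 0.08. Differently numbered libraries were not compared, so pairing by replicate number could not be judged from these values. The replicate block reversed WRKY53 in OE-6 against the mutant at 24 h (0.012). Counts by list moved by over 1.5 times in 17 of 64 cases with only the groups compared, in 10 with both libraries left out, in 7 with DESeq2, in 4 with the filter at 5 CPM, in 3 with no filter and in 2 each with organelle genes left out and the replicate block. With 1 library left out 86 moved and 1002 did not; the autophagy genes higher in Col-0 went from 8 to 1. Levels near the floor of 3 counts limit SAG12, and the low 0 h counts of SAG13 and JUB1 limit their fold changes.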
